A study of Homo sapiens with 16 samples.

Results

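Regions at transcript starts were defined as merged m6A regions whose midpoint lay in the first exon, within 200 nt downstream of the annotated start of a canonical protein-coding transcript, and that overlapped no stop codon. The rule used position alone and no measured value. It gave 870 of the 36970 merged regions, at 870 different genes, and 36349 of the merged regions lay on chromosomes 1 to 22 and X, where members were sought. The regions came from methylated RNA immunoprecipitation and sequencing (MeRIP-seq), in which fragmented RNA is captured with an antibody against N6-methyladenosine (m6A) and compared with its unselected input. C4-2B cells, an enzalutamide-sensitive human prostate cancer line, were compared with MDV-R cells, an enzalutamide-resistant line derived from C4-2B by passage in that androgen receptor inhibitor. By the study's methods MDV-R cells were kept in medium containing enzalutamide and C4-2B cells were not described as such, so the line and the drug cannot be told apart. Both lines are labelled wild type and were collected at day 3, with 4 IP and 4 input libraries for each line. A peak list was available for each of the 8 IP libraries, called over its own input.

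Each line is 1 established culture, and no label says whether replicates were separate cultures, so p-values measure only the spread between these libraries. T24R2, which resembles the name of a bladder cancer line, appears in the sample titles for MDV-R as well, and grouping followed the cell line field. Of 8 prostate luminal markers, between 5 and 8 had a called region in each C4-2B list and 8 in each MDV-R list, against 0 or 1 of 6 urothelial markers, 0 or 1 of 5 fibroblast markers and 0 of 4 leukocyte markers. Of those, 5 urothelial, 4 fibroblast and 4 leukocyte markers had no merged region and could not be counted in a list. The urothelial count was 1 in each MDV-R list and 0 or 1 in the C4-2B lists. Tags recovered from the lists came to 1.00 ± 0.148 M per C4-2B IP and 0.941 ± 0.0604 M per MDV-R IP (SD, n = 4, M for 1e+06 tags). The inputs differed more, at 1.03 ± 0.156 M tags for C4-2B against 2.37 ± 0.567 M for MDV-R, without overlap, so line and input depth cannot be told apart in any comparison below.

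In most mRNAs m6A is placed by METTL3 and METTL14 inside the transcript, most often in the sequence DRACH, of which GGAC is the commonest form, and around stop codons and in long internal exons. A different mark, N6,2'-O-dimethyladenosine (m6Am), is placed by PCIF1 on the first transcribed base next to the cap when that base is adenosine. The antibody used in MeRIP binds both marks. A region at a transcript start can therefore hold m6Am at the cap, m6A in the first exon, or both, and the peak lists do not separate them. The peaks also carry no strand, so a transcript running the other way from the same promoter cannot be told apart from the gene itself.

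The first bases of several genes described below show what the antibody could meet next to the cap. Each runs from 5 bases before the annotated start to 25 bases into the transcript, in the direction of transcription, on the hg38 build, with the first transcribed base in capitals.
CSNK1D (chr17:82273676-82273705, minus strand): acgtcAcagcgcgatggcggcggctccttt
THEG (chr19:376002-376031, minus strand): accacAgacacatttgggtgccgggagagt
LOX (chr5:122078235-122078264, minus strand): actccAgacactgcccgctctccgggactg
EIF4A3 (chr17:80147104-80147133, minus strand): gcggcAcagcgaggtcggcagcggcacagc
SLC3A2 (chr11:62880891-62880920, plus strand): tgagcAgatgcagtagccgaaactgcgcgg
ARPC5 (chr1:183635759-183635788, minus strand): gcggcAgtcggcgacgcctcagagcggaag
CMTM1 (chr16:66566434-66566463, plus strand): gggacGcgacgctggttcccaggggagagc
KCNG1 (chr20:51023083-51023112, minus strand): ccggcGcactcggagcccggcggggaccgg
ATG101 (chr12:52069973-52070002, plus strand): ggcttCcggtcccggctcagcctccgaccc
The first 6 open with adenosine after a cytosine, the context in which m6Am is usually found. CMTM1 and KCNG1 open with guanosine and ATG101 with cytosine, so none of these 3 has an adenosine at its annotated first base.

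Regions at transcript starts were called in few lists. Of the 870, 105 (12.1%, Wilson 95% interval 10.1 to 14.4, counting error only) were called in all 8 lists, 234 in 1 list and 23 in none. Of all merged regions called at least once, 25.9% were called in all 8 lists. The share was 45.6% of 13007 other regions in exons of canonical coding transcripts, 36.0% of 489 regions in the 5'UTR beyond the first 200 nt, and 58.1% of 5996 regions over a stop codon. These classes overlap. The 13007 other exonic regions include the 489 and those stop-codon regions whose midpoint lay in an exon, here and in all comparisons below. Within the lists, 45.7 ± 17.5% of the start regions were called against 72.2 ± 11.0% of other exonic regions (SD, n = 8). The difference of -26.5 percentage points had the same sign in 8 of 8 lists (exact two-sided sign-flip permutation test, p = 0.0078, the smallest that 8 lists allow, adjusted p = 0.010 over 4 tests within lists).

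**Figure D1:**
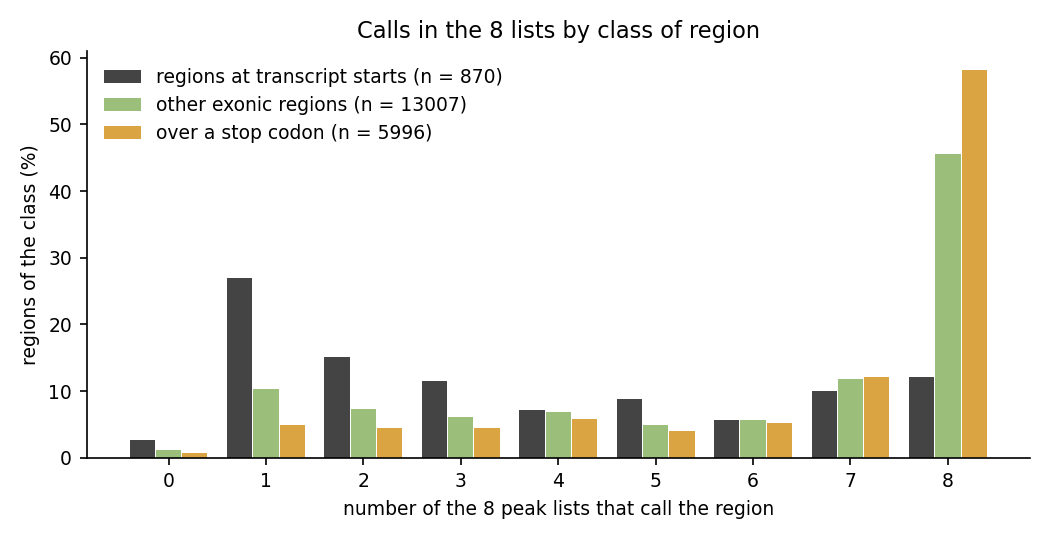
Percentage of regions in each class (y axis) by the number of the 8 peak lists that call them (x axis). Bars for the 870 regions at transcript starts are highest at 1 list, whereas those of the 13007 other exonic regions and of the 5996 regions over a stop codon are highest at 8 lists. Stop-codon regions whose midpoint lies in an exon are in both of the latter classes.

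Called start regions also ranked lower within their lists. The median percentile of peak significance, taken within each list so that depth does not enter, was 46.0 ± 2.18 for start regions (SD, n = 8 lists), compared with 53.7 ± 0.338 for all other regions and 75.6 ± 3.13 for regions over a stop codon. The difference from all other called regions was -7.67 points and negative in 8 of 8 lists (exact sign-flip permutation test, p = 0.0078, adjusted p = 0.010). Median fold enrichment of IP over background at the summit was 7.47 ± 0.546 at starts and 8.47 ± 0.697 at all other regions, with regions over stop codons at 10.1 ± 2.19. All 8 lists contain many of the same regions, so these tests cover the spread between libraries and not that between genes.

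Start regions were short and GC-rich. Their median length was 423 nt, against 712 nt for other exonic regions and 865 nt over stop codons, and the median region reached from 135 nt before the start to 311 nt after it. A median of 32.4% of a region lay upstream of the annotated start and 63.5% in the first exon. The median first exon was 346.5 nt long compared with 186 nt over all 19625 canonical coding transcripts, which follows in part from a rule that places midpoints within the first exon. The first 200 nt of the transcript, or the whole first exon where shorter, were 71.4% G or C, and 66.1% in the median of all canonical transcripts. Length rose with the number of lists, as the median was 305.5 nt for regions called in 1 list, 378.5 nt in 2 or 3, 532.5 nt in 4 to 7 and 993 nt in all 8. The lowest summits of called start regions held between 4 and 7 tags in the different lists.

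The rule places the midpoint of a region up to 200 nt after the start (median 82 nt), so summit positions near it follow in large part from the rule and are given as a description. The median distance from the annotated start to the strongest summit averaged 108 ± 1.76 nt over the C4-2B lists and 108 ± 8.02 nt over the MDV-R lists (SD, n = 4 list medians), and the list medians ranged only from 102 to 119 nt. The difference between the lines was -0.50 nt and smaller than the spread between lists (exact two-sided permutation test over 70 arrangements, p = 0.97, adjusted p = 0.97 over 3 tests between lines). Taking the median summit of each region over its lists, 642 of 847 called regions (75.8%) had it in the first 200 nt of the first exon. A further 102 had it later in the first exon, 72 upstream of the start and 31 past the first exon. Fragments were about 100 nt long, so a summit at this distance does not place a modified base to better than a fragment length.

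**Figure D2:**
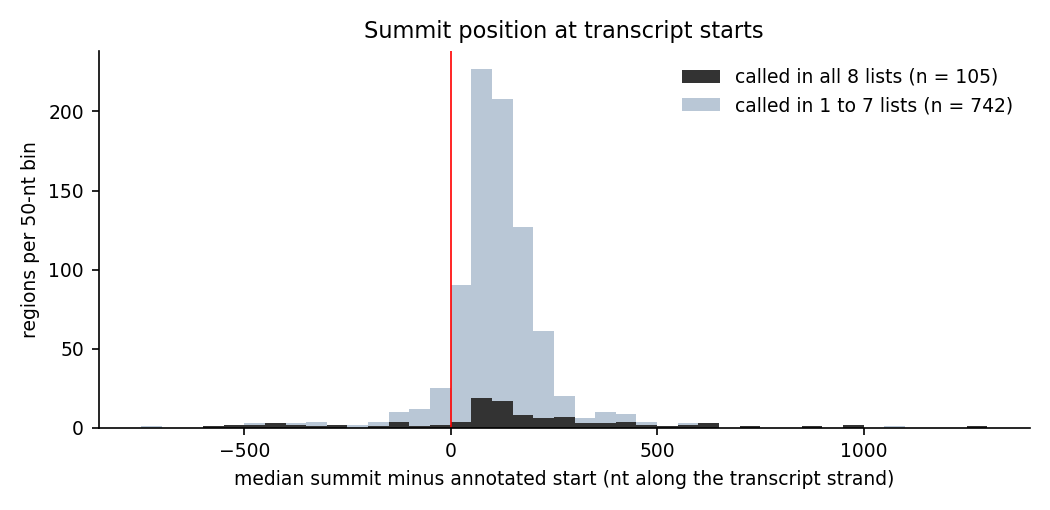
Distance from the annotated start to the median summit over lists (x axis, nt along the transcript strand) against the number of regions per 50-nt bin (y axis), for 847 called regions at transcript starts. The 742 regions called in 1 to 7 lists form 1 peak between 50 and 150 nt, while the 105 called in all 8 lists spread from far upstream to far downstream.

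Regions called in all 8 lists had the median summit in the first 200 nt less often, at 43.8%, than all called regions, at 75.8%. They were also longer, at a median of 993 nt, and summit position was not tested against length. Among the 105 called in all 8 lists, 46 had the median summit in the first 200 nt, 27 later in the first exon, 21 upstream and 11 past the first exon. Thus 7.17% of regions with a summit in the first 200 nt were called in all 8 lists, and 29.2% of those with an upstream summit. Upstream summits fell within the span of the same gene, in front of its canonical start, at 31 of 72 regions, within another gene only at 21, and within no annotated gene at 20. Median length was 804.5 nt for regions with an upstream summit and 396 nt for those with a summit in the first 200 nt.

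Adenosine at the first base was no more common at these starts than at all annotated starts. It opened 442 of 870 transcripts (50.8%, Wilson 95% interval 47.5 to 54.1), compared with 50.98% of all canonical coding transcripts. Guanosine opened 350, cytosine 76 and thymidine 2. Compared instead with genes called elsewhere in the same list but with no peak in the first 200 nt, adenosine was more frequent, at 50.9 ± 1.13% against 46.5 ± 0.265% (SD, n = 8 lists). This difference of 4.43 percentage points was positive in 8 of 8 lists (exact sign-flip permutation test, p = 0.0078, adjusted p = 0.010). The list shares for start regions rest on 138 to 673 genes each, and on many of the same genes, so the interval over genes is wider than the SD over lists. The pair CA across the start gave 39.4 ± 1.12% against 35.5 ± 0.316%. Annotated starts need not be the ones used in these cells.

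The share of adenosine by summit position was highest at 50 to 99 nt and lowest at 200 nt or more, a difference that was not tested. It was 47 of 90 (52.2%, Wilson interval 42.02 to 62.2) where the summit lay 0 to 49 nt from the start, 56.8% (50.3 to 63.1) of 227 at 50 to 99 nt, and 51.4% (44.7 to 58.1) of 208 at 100 to 149 nt. It was 52.0% (43.3 to 60.5) of 127 at 150 to 199 nt, 42.3% (33.9 to 51.1) of 123 at 200 nt or more and 43.1% (32.3 to 54.6) of 72 upstream. Starts with adenosine, guanosine and cytosine were called in at least 4 lists in 43.9%, 42.9% and 46.1% of cases. The median summit distances were 103.5, 110 and 117 nt in the same order.

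GGAC occurred near the summits of start regions about as often as elsewhere. Within 50 nt of the strongest summit, on the strand of the gene, it was present in 49.2 ± 1.67% of called start regions. In other called exonic regions, which include those over stop codons, it was present in 48.2 ± 1.29% (SD, n = 8 lists). The difference of 1.00 percentage point was positive in 6 of 8 lists and did not pass the threshold (exact sign-flip permutation test, p = 0.19, adjusted p = 0.19). On the opposite strand GGAC was present at 34.6% of start summits and 26.8% of the others, in the same direction in 8 of 8 lists. The wider motif DRACH (D is A, G or T, R is A or G, H is A, C or T) went the other way, at 69.4% of start summits and 91.2% of the others. Over first exons of at least 200 nt, the first 200 nt held GGAC in 71.8% of 734 start members and 60.8% of 8461 other canonical transcripts, and its reverse complement GTCC in 60.5% and 57.6%.

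Several of the GGAC copies lay close to the median summit over lists. The following sequences are 25 nt from the gene's strand with GGAC in capitals, taken where GGAC lies nearest to the median summit over lists.
CSNK1D (chr17:82273559-82273583, minus strand): ggcggcgctcGGACtgtcccatccg
THEG (chr19:375966-375990, minus strand): ggctgggaagGGACcggtgtatggg
LOX (chr5:122078195-122078219, minus strand): ttgccttccaGGACtgagaaagggg
KCNG1 (chr20:51023014-51023038, minus strand): ccgggccccgGGACcgaagtttggc
ASPHD1 (chr16:29900611-29900635, plus strand): gagccaggcaGGACcgcagggtcgg
The adenosine of GGAC was 17 nt downstream of the median summit in CSNK1D, 4 nt upstream (-4) in THEG, 2 nt downstream in LOX, 2 nt upstream (-2) in KCNG1 and 19 nt downstream in ASPHD1. Copies at other named genes lay farther off, as at 49 nt in SLC3A2 and 40 nt in ATG101. Each copy is by construction the nearest within 50 nt, so these examples do not measure closeness. Summits ranged over 8 nt between lists in THEG, 64 nt in CSNK1D, 69 nt in LOX, 121 nt in KCNG1 and 224 nt in ASPHD1. An offset from the median therefore need not hold in each list. In CSNK1D, THEG and LOX an adenosine at the cap and a GGAC near the summit were both present. EIF4A3 and ARPC5 had an adenosine at the first base and no GGAC within 50 nt of the summit.

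The 10 start regions with the highest mean percentile among those called in all 8 lists were those of AJUBA, BCL2L1, PPP1R9B, GOLGA4, CSNK1D, P3H4, CMTM1, ST20-MTHFS, PPP4R3B and HOXC6. Of these, 3 had the median summit in the first 200 nt. AJUBA, which encodes a LIM-domain scaffold protein, had fold enrichments of 20.1, 27.2, 22.3 and 32.9 in C4-2B and 42.3, 33.5, 14.8 and 27.6 in MDV-R. Its summit lay 394 to 422 nt upstream of the start (-422 to -394) in each of the 8 lists, inside the divergent noncoding gene AJUBA-DT. BCL2L1, which encodes the anti-apoptotic protein Bcl-xL, had values of 7.59 to 12.6 in C4-2B and 8.56 to 20.2 in MDV-R, with summits 703 to 976 nt into the gene and past the first exon. The lines overlapped for both genes.

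GOLGA4, a golgin of the trans-Golgi, had the most constant summit of the 10, at -131 to -123 nt and within the antisense gene GOLGA4-AS1. Its fold enrichment was 14.7, 21.1, 20.4 and 21.0 in C4-2B and 27.3, 25.6, 23.01 and 30.5 in MDV-R, so that each MDV-R list lay above each C4-2B list. The difference nevertheless did not pass the test across regions that is given below. PPP1R9B, which encodes a scaffold of protein phosphatase 1, had its summits 1216 to 1287 nt into a first exon of 1535 nt. P3H4 and PPP4R3B had median summits upstream at -584.5 and -138.5 nt, and HOXC6, a homeobox gene, at 210 nt.

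The 3 regions with summits near the cap were those of CSNK1D, CMTM1 and ST20-MTHFS. CSNK1D, which encodes casein kinase 1 delta, had summits 88 to 152 nt from the start and between 110 and 133 tags in each list. Its fold enrichment was 9.32, 10.8, 16.3 and 11.8 in C4-2B and 22.2, 20.9, 9.68 and 22.1 in MDV-R. The third MDV-R list was low and the other 3 MDV-R lists lay above each C4-2B list. CMTM1 had fold enrichments of 13.9, 20.5, 20.7 and 26.1 in C4-2B and 30.9, 40.3, 25.96 and 45.4 in MDV-R, and its summit also lies within the span of the read-through gene CKLF-CMTM1. ST20-MTHFS is a read-through transcript of ST20 and MTHFS, and its signal cannot be assigned to 1 of the overlapping genes.

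**Figure D3:**
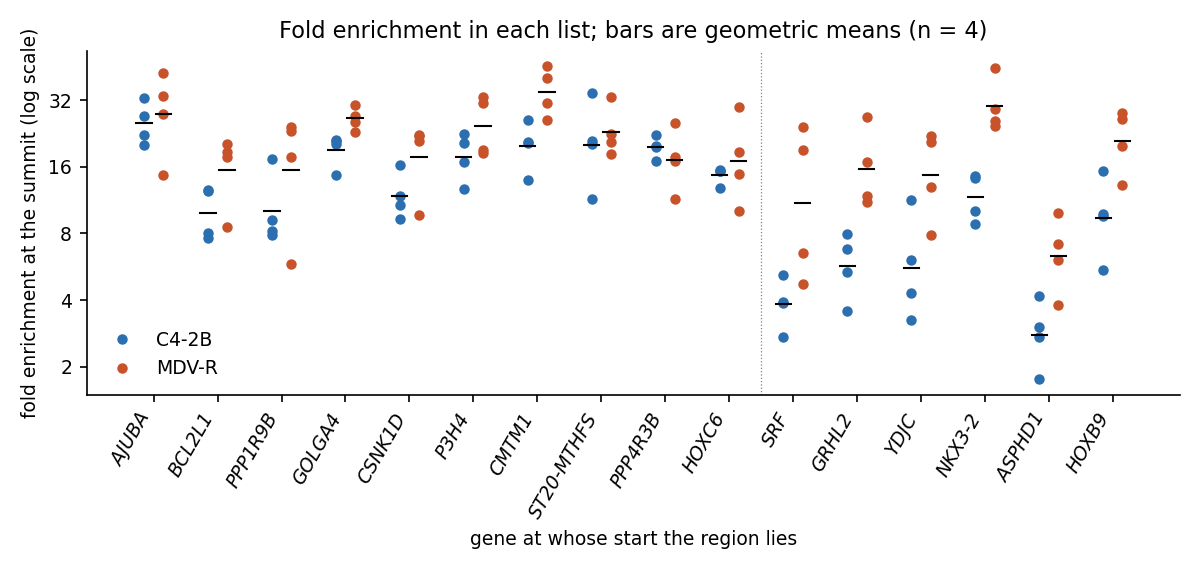
Fold enrichment at the strongest summit (y axis, log scale) for the 10 start regions with the highest mean percentile in all 8 lists (left of the dotted line) and the 6 that passed the test between lines (right). Points are the 4 lists of each line and bars their geometric means. C4-2B and MDV-R points overlap for most genes on the left, and do not overlap for GRHL2 and NKX3-2 on the right.

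MDV-R lists held more start regions than C4-2B lists, but not beyond the spread between lists. The 4 C4-2B lists called 138, 421, 330 and 316, and the 4 MDV-R lists 413, 481, 406 and 673. The first C4-2B list was low and the fourth MDV-R list high, and the lines overlapped. The means were 301 ± 118 and 493 ± 125 (SD, n = 4), a difference of 192 (exact two-sided permutation test, p = 0.086, adjusted p = 0.13, with 0.0286 the smallest p that 70 arrangements allow). Those 2 lists were also the smallest and the largest over all peaks, at 13191 and 30645. Without both lists the difference was 77.7 (exact permutation test, p = 0.30, where 3 against 3 cannot go below 0.10).

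As a share of all called regions, start regions made up 1.24, 1.98, 1.66 and 1.61% of the C4-2B lists and 2.00, 2.02, 1.88 and 2.61% of the MDV-R lists. The means were 1.62 ± 0.304% and 2.13 ± 0.324% (SD, n = 4), a difference of 0.50 percentage points (exact permutation test, p = 0.057, adjusted p = 0.13). With lists cut to equal size the difference was 0.28 points (p = 0.17), and without the smallest and the largest list 0.22 points (p = 0.20, both by the exact permutation test). Without the second C4-2B list alone both measures passed the threshold before adjustment, at 232 regions and 0.62 points (exact permutation test, p = 0.0286 for each). The fourth MDV-R list was the only one to call 131 of the 234 start regions called once, and the first 200 nt of these 131 were 74.0% G or C in the median, against 69.5% for the 105 called in all 8 lists.

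**Figure D4:**
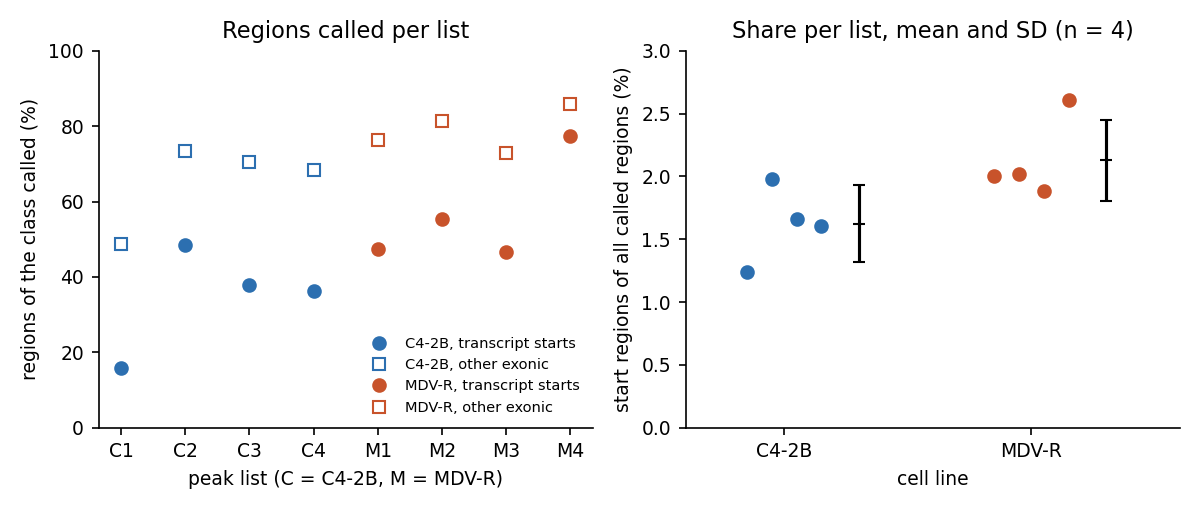
Left, percentage of the 870 start regions (filled circles) and of the 13007 other exonic regions (open squares) called in each of the 8 lists. Right, start regions as a percentage of all regions called in a list, with mean and SD for each line (n = 4). Start regions lie below other exonic regions in each list, and the shares of the lines overlap between 1.88 and 1.98%.

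Of the 847 start regions called at least once, 339 were called in MDV-R lists alone, 71 in C4-2B lists alone and 437 in at least 1 list of each line. The fourth MDV-R list alone gave 131 of the 339. MDV-R lists also called more of the regions that are not at starts, at 62.2 ± 6.15% against 48.9 ± 12.5% in C4-2B (SD, n = 4). The same measure for start regions was 56.7 ± 14.3% in MDV-R and 34.6 ± 13.6% in C4-2B. The split was not counted over all regions, so whether it is particular to start regions cannot be said. Few start regions were called in each list of 1 line and no list of the other. There were 3 called in 4 of 4 C4-2B lists and 0 of 4 MDV-R lists (0.354%, where 1.22% of all called regions were), and 22 the other way (2.60%, against 3.68% of all called regions). None of them passed Fisher's exact test after adjustment over 36076 regions, where 4 lists against 4 allow no unadjusted p under 0.0286 and the lowest adjusted p was 0.58. All 25 had the lowest possible unadjusted p. With lists cut to equal size, 4 and 13 regions met the rule. A missing call says only that no peak passed the caller's threshold there, and the deposited lists give no value for it.

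The 3 regions of C4-2B were those of ZBTB16, THEG and LOX. ZBTB16, which encodes a zinc finger transcription factor, had 58, 74, 66 and 62 tags at its summit in the 4 C4-2B lists. THEG had 11, 23, 11 and 23 tags, and LOX, the gene of the collagen-crosslinking enzyme lysyl oxidase, 10, 10, 12 and 9. The tag numbers of LOX are near the lowest at which start regions were called, whereas those of ZBTB16 are above the list medians for start regions.

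Among the 22 regions of MDV-R, those of SLC3A2, EIF4A3, ATG101, KCNG1 and ARPC5 had the highest mean percentiles. SLC3A2, which encodes the heavy chain of the CD98 amino acid transporter, had 140, 103, 140 and 143 tags in the 4 MDV-R lists, with summits 77 to 110 nt from the start and fold enrichments of 7.97, 6.18, 3.81 and 9.12. EIF4A3, a helicase of the exon junction complex, had 70, 62, 76 and 65 tags and fold enrichments of 13.01, 12.3, 5.83 and 14.1, with summits 72 to 102 nt from the start. ATG101, a subunit of the ULK1 autophagy-initiation complex, had 42, 33, 54 and 33 tags. KCNG1, a potassium channel subunit, had 26, 30, 37 and 32, and ARPC5, a subunit of the actin-nucleating Arp2/3 complex, 55, 60, 75 and 62. The third MDV-R list gave the lowest fold enrichment for SLC3A2, EIF4A3 and ARPC5, though not the fewest tags.

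Fold enrichment of the 105 start regions called in all 8 lists was compared between the lines with limma across all 9327 merged regions called in all 8. It was higher in MDV-R for 6 and lower for 0 after Benjamini-Hochberg adjustment over all 9327. Over all regions tested, 3.63% passed, 3.41% higher and 0.225% lower in MDV-R, so 6 of 105 (limma, adjusted p below the 0.05 threshold) is to be read against that background. The median difference, MDV-R minus C4-2B on the log2 scale, was 0.38 for start regions and 0.44 for all regions, and 50 of the 105 lay above the median of all regions. After quantile normalization, which removes that overall shift, 2 start regions were higher and 1 lower in MDV-R. Over all 9327 regions, 62 were then higher and 158 lower. The fit took 1 common variance for all regions, so each SE was 0.36 whatever the gene's own spread.

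**Figure D5:**
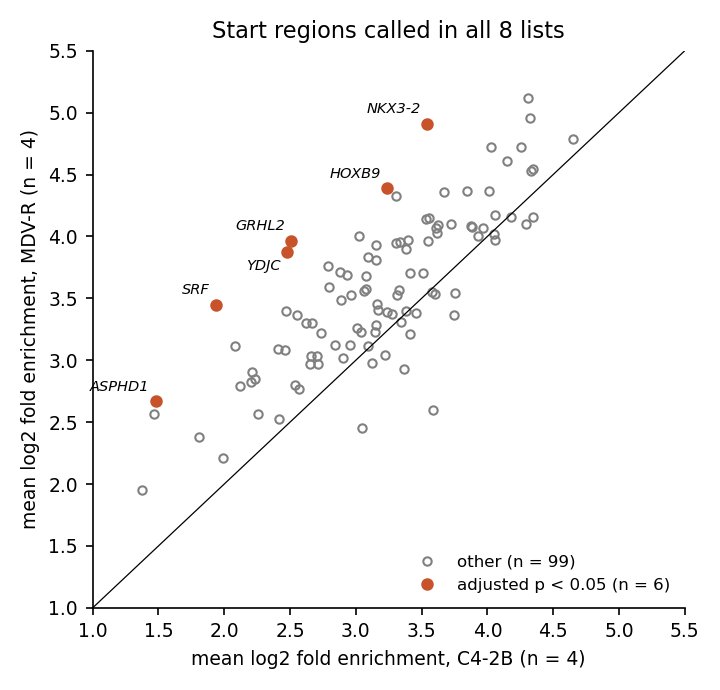
Mean log2 fold enrichment in C4-2B (x axis) and MDV-R (y axis), n = 4 lists each, for the 105 start regions called in all 8 lists, with the line of equality. Most points lie above the line, by a median of 0.38, and the 6 filled points passed the limma test.

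The 6 regions were those of SRF, GRHL2, YDJC, NKX3-2 and ASPHD1, with HOXB9 as the sixth, which was named after its value was seen. NKX3-2, a homeobox transcription factor gene, had fold enrichments of 8.81, 14.2, 14.5 and 10.1 in C4-2B and 24.4, 29.2, 25.8 and 44.5 in MDV-R, without overlap. The log2 difference was 1.37 ± 0.36 (SE, n = 4 and 4, limma adjusted p = 0.016), or 0.94 more than the median of all regions. The tags at its summit were 14, 18, 18 and 12 in C4-2B and 50, 56, 66 and 60 in MDV-R. Its IP tags, scaled to depth, were higher in MDV-R by 2.00 on the log2 scale and its background by 1.496 (limma adjusted p = 2.5e-12 and 0.028), and summits lay at -404 to -362 nt in all 8 lists.

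At GRHL2, an epithelial transcription factor gene that was selected on these samples and then followed up by targeted assays in the study, the strongest summit was in a different place in each line. It lay at -256 to -221 nt in the 4 C4-2B lists and at -887 to -840 nt in the 4 MDV-R lists, 584 nt apart at the nearest. Of the 105 start regions called in all 8 lists it was the 1 region whose lines were at least 100 nt apart in this way, and 0.558% of all 9327 regions were. Both positions are upstream of the annotated start. The median of the 8 summits, at -548 nt and between these positions, lies within the spans of ENSG00000254024 and ENSG00000289048. Signal of such overlapping transcripts and of GRHL2 cannot be told apart. Fold enrichment was 3.58, 7.99, 5.37 and 6.82 in C4-2B and 11.1, 16.8, 11.9 and 26.9 in MDV-R, with a log2 difference of 1.46 ± 0.36 (SE, limma adjusted p = 0.0088). The tags ran the other way, at 147 to 171 in C4-2B and 53 to 77 in MDV-R. On the log2 scale the scaled tags differed by -1.15 and the background by -2.95 (limma adjusted p = 3.9e-07 and 0.00010), so the values of the lines belong to different positions and different backgrounds. The study lists a 5'UTR peak of GRHL2 as less methylated, and the gene as less expressed, in MDV-R. The study compared that peak's IP change with the change of the gene's input, and GRHL2 also passed its targeted MeRIP-qPCR. The fold enrichment here is a ratio to local background at upstream summits that lay in different places in the lines. It was higher in MDV-R and the scaled IP tags were lower, so it is not a like measure to the study's.

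Summits also moved between lists at SRF and YDJC. SRF, which encodes serum response factor, had summits at 608 to 619 nt in C4-2B, and at -130, -138, 482 and 637 nt in MDV-R. Its fold enrichment was 2.73, 3.86, 5.19 and 3.91 in C4-2B and 19.1, 24.3, 6.53 and 4.71 in MDV-R. The 2 MDV-R lists with an upstream summit were the high ones, and the fourth MDV-R list lay within the C4-2B range. The log2 difference was 1.51 ± 0.36 (SE, limma adjusted p = 0.0065), with 0.38 and 1.15 as the SDs of C4-2B and MDV-R. At YDJC the summit was upstream in 1 C4-2B list and 3 MDV-R lists, and those 4 lists gave the 4 highest fold enrichments, at 11.4 in C4-2B and 12.98, 20.7 and 22.02 in MDV-R.

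ASPHD1 had low fold enrichment in C4-2B, at 1.75, 2.73, 3.03 and 4.19, and had 7.18, 6.05, 3.81 and 9.84 in MDV-R. The log2 difference was 1.19 ± 0.36 (SE, limma adjusted p = 0.039) and the lines overlapped. HOXB9, a homeobox gene, had 9.84, 15.4, 9.58 and 5.48 in C4-2B and 19.8, 26.3, 13.3 and 27.9 in MDV-R, with a log2 difference of 1.15 ± 0.36 (SE, limma adjusted p = 0.044). None of the 6 calls survived leaving out the second MDV-R list, and of all start regions 0 passed then, with 14 at an unadjusted p under 0.05 in limma. Over all 9327 regions 30 passed then, and 1397 had an unadjusted p under 0.05 in limma. Between 0 and 24 start regions passed when each list in turn was left out. The 24 came without the third MDV-R list, where 2090 of all 9327 regions passed.

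The members were also read by gene lists. Over all canonical coding genes with a merged region in an exon, 9.03% had a start region. No TOP mRNA gene had one, although 21 of 97 such genes, mostly ribosomal proteins and translation factors, had a merged region in an exon. Cytosine was the annotated first base of 76.3% of the 97. Of the oxidative phosphorylation genes, 1 of 15 with a region had one, that of NDUFA2, called in 1 MDV-R list. Zinc finger genes had 16 start regions among 465 genes with a region (3.44%), 10 of them called in at least 4 lists (381 of all 870 start regions were), led by ZNF746, ZNF747 and ZNF48 in all 8 lists. Histone genes had 5 among 19, none in more than 3 lists, and H2AJ was called in 3 C4-2B lists and 0 MDV-R lists.

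Of the androgen response and prostate genes, 4 of 17 with a region had a start region. FOXA1, a pioneer factor of the androgen receptor, was called in all 8 lists, at 4.68 to 6.31 in C4-2B and 5.27, 10.9, 9.39 and 23.2 in MDV-R, with overlap of the lines. HOXB13 was called in all 8, at 2.24 to 2.87 in C4-2B and 2.36 to 6.08 in MDV-R. ELL2, an elongation factor gene, was called in 2 C4-2B lists. Neither FOXA1 nor HOXB13 passed the test between lines.

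Of the m6A and m6Am machinery genes, 2 of 19 with a region had a start region, those of ALKBH5 and METTL3. ALKBH5, an m6A demethylase, had fold enrichments of 1.77, 3.15, 3.25 and 3.23 in C4-2B and 6.19, 5.65, 4.04 and 8.75 in MDV-R, without overlap, and the log2 difference of 1.098 ± 0.36 did not pass (SE, limma adjusted p = 0.053). Its median summit was 565.5 nt from the start. METTL3, the catalytic m6A writer, was called in 1 list, the second of C4-2B. Among immediate early genes, DUSP1 was called in 7 lists, BTG2 in 1 C4-2B and 4 MDV-R lists, and FOS in 1 MDV-R list, with 3 of 22 genes in all. Among SR and hnRNP genes 5 of 26 had a start region, of which HNRNPUL1 was called in all 8 lists and HNRNPD in 1 C4-2B and 4 MDV-R lists. The remaining 3, SRSF9, HNRNPA2B1 and SRSF2, were each called in 1 MDV-R list. Of the 12 genes followed up by targeted assays in the study, which were chosen on these samples, only GRHL2 had a start region.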

How the data were processed

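MeRIP-seq was analysed in 8 IP libraries, each with its own input. The authors aligned reads to hg38 (GENCODE v39) with STAR 2.7.0, removed duplicates and multiply mapped reads with SAMtools 1.10, and used MACS2 3.0.0a6 for peak calling, extending tags to 100 nt with a genome size of 300 Mb. How the merged region list was made is not given in the sources used here. The deposited peak lists hold a score, the fold enrichment (a ratio over local background) at the summit, −log10 p and −log10 q values and the summit offset. The deposited region list holds coordinates.

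Members, summits and first bases were placed with GENCODE release 44 on the same build. A region was called in a list when a peak overlapped it, and the peak with the strongest −log10 p was used. Whole tags at each summit were recovered from fold enrichment and −log10 p under the caller's Poisson model (at least 99.8% of peaks solved within 0.002). The smaller library's depth came from the commonest low background and the input's depth from the background of 1 input tag. Tests were exact permutation tests, Fisher's exact test and limma 3.58.1 (R 4.3.3) on log2 fold enrichment, because counts of reads, which the study's own differential tests need, are not in these files. Benjamini-Hochberg adjustment was over all regions tested or within the named family. The tests were checked on simulated data. Members, gene lists and tests were chosen with earlier results of these data known. Named genes were the 10 highest by mean percentile in all 8 lists, up to 5 per line called in that line alone, up to 5 per direction by limma and up to 3 per gene list, of which 1 is not reported here. The same-numbered lists of the lines did not deviate together (correlations -0.075 to 0.025), and their numbers were not taken as pairs.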

Additional observations from a re-analysis of the deposited data

Results flagged for a closer look

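Within groups of 4 lists, a value whose gap to its nearest neighbour passed Dixon's 95% critical share of the group's range was set apart, and 5 of 60 groups held one, where chance gives about 1 in 20. In the fourth MDV-R list 9.96% of start summits lay upstream of the start, against 14.3 to 14.8% in the other MDV-R lists. The third MDV-R list was low for BCL2L1 (log2 fold enrichment 3.10, others 4.15 to 4.33) and for CSNK1D (3.27, others 4.39 to 4.47). The first C4-2B list was low for GOLGA4 (3.88, others 4.35 to 4.40), and the second C4-2B list for HOXC6 (3.69, others 3.93 to 3.95).

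The lists also held peaks at transcript starts that overlapped no merged region and so entered no comparison. By the same positional rule there were 9, 21, 10 and 13 in the 4 C4-2B lists and 20, 19, 20 and 61 in the 4 MDV-R lists. The fourth MDV-R list again had the most.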

How the results depend on the processing

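The low percentile and the adenosine difference kept their direction under all alternatives run for them, with leave-one-out ranges of -8.12 to -7.26 and 4.18 to 4.73 points. They passed under each, apart from an adenosine alternative, given below, that cannot serve as a test. The low share of start regions called was an added, unplanned test. Leaving out 1 list was the only alternative run for it, and it passed each time (-29.1 to -25.6 points). The percentile difference was -4.72 over regions called in all 8 lists and -9.62 with a window of 100 nt. The adenosine difference was 3.05 points over regions called in all 8 lists. GGAC at summits (leave-one-out 0.67 to 1.45 points) passed on the opposite strand (7.81) and reversed as DRACH (-21.9) and, to -1.63 points, against 5'UTR regions beyond 200 nt (exact sign-flip permutation test, p = 0.13, positive in 2 of 8 lists). Differences between lines had leave-one-out ranges of 132 to 232 regions, 0.34 to 0.62 percentage points and -4.25 to 1.42 nt. The summit difference, never past the threshold, turned positive at 0.625 nt with peaks of -log10 q of at least 5, 4.625 nt with a window of 100 nt, 9.5 nt over regions called in all 8 lists and 0.25 nt over first exons of at least 200 nt with 1 start. Start regions called in 1 line alone numbered 26 to 48 leaving out 1 list (3 to 10 in C4-2B, 22 to 44 in MDV-R), 40 without the smallest and largest list together, a setting chosen after seeing the data (14 in C4-2B), and 13 in MDV-R with equal list sizes. The count passing limma, 6, was 26 on IP tags scaled to depth (15 higher, 11 lower in MDV-R), 11 on background, 3 after quantile normalization and 0 to 24 leaving out 1 list. Over all 9327 regions the count, 339, was 3203 on scaled IP tags, 1179 on background and 220 after quantile normalization. It ran from 30 to 2090 leaving out 1 list, so the start counts are to be read against these. On scaled IP tags SRF (-0.19) and GRHL2 (-1.15) reversed, and on background SRF (-2.11), GRHL2 (-2.95), YDJC (-1.60), ASPHD1 (-0.97) and HOXB9 (-0.40) did. After quantile normalization only GRHL2 and NKX3-2 of the 6 passed. The cause was not tested.

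With the replicate number as a paired replicate block, the differences of 192 regions and 0.50 points had p = 0.125 by the exact permutation test, the smallest that 16 arrangements allow, the summit difference was -0.50 nt, and 7 start regions passed limma. With that block 448 of all 9327 regions passed limma. The weakest calls rest on 4 to 7 tags. The first C4-2B IP was the deepest and had the fewest start calls, and calls were not tested against depth.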
